A study of Homo sapiens with 15 samples.

Results

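The BCL2 guardians and the BH3-only genes were examined in HCT116 xenograft tumors carrying 5 constructs. Of the genes of the BCL2 family, 10 were followed: the anti-apoptotic guardians BCL2, MCL1, BCL2L2 and BCL2A1, and the BH3-only genes BCL2L11, BBC3, PMAIP1, BAD, BMF and BIK. Every array probe whose RefSeq record maps to 1 of these genes was taken, which gave 15 of the 34127 non-control probes and 10 of the 19480 named genes. HCT116 is a human colon carcinoma cell line, and the tumors grew in athymic nude mice, which lack a thymus and so most T cells. The cells received the empty pCDNA3 vector (Vector), unaltered MOAP-1 (called MOAP-1 here), a form with 1 lysine replaced by arginine (K264R), another such form (K278R), or HA-tagged wild type RASSF1A in pCDNA3 (RASSF1A). Each construct was measured in 3 tumors, 1 tumor per single-color array. The study's methods describe transient transfection before injection, and whole tumors were used for RNA, so a tumor could hold cells that no longer carried the construct as well as mouse host cells. The labels do not say whether the tumors came from separate mice, and p-values then measure the spread between these tumors.

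The MOAP-1 protein has a BH3-like stretch and binds BAX, and RASSF1A is a tumor suppressor that binds MOAP-1. The guardians hold the pore-forming proteins BAX and BAK1 in check at the mitochondrial outer membrane. BH3-only proteins insert their BH3 helix into the groove of a guardian and so free the pore formers, and some of them also bind BAX or BAK1 directly. BCL2L11 (BIM) and BBC3 (PUMA) bind all guardians, whereas PMAIP1 (NOXA) prefers MCL1 and BCL2A1, and BAD prefers BCL2 and BCL2L2. BBC3 and PMAIP1 are known as genes switched on by cell stress, and MCL1 is a protein with a short life that depends on continued transcription.

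Levels are given as the log2 of the processed signal with the 75th percentile of each array set to 0, so that a value of 1 lies 2-fold above that percentile. Such values compare 1 probe between tumors and not 1 probe with another. The tests covered probes marked well above background in each of the 3 tumors of 1 or more constructs. This held for 14 of the 15 probes and left all 10 genes with a probe, and the probe left out was A_23_P152002 of BCL2A1, which was well above background in 0 of the 15 tumors. A difference was called where limma's Benjamini-Hochberg adjusted p over all 30585 kept probes was under 0.05 and the change was at least 1.5-fold.

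The arrays had 85.1 to 93.1% of non-control spots well above background, lowest in Vector tumor 1, and 75th percentiles between 495.8 and 1400 signal units. Brightness differed between constructs, with 75th percentiles of 630 to 768 in Vector and 1171 to 1400 in K264R. Of 17 spots of extreme local background, Vector tumors 2 and 3 held 6 and 5, and K264R tumor 2 held 6. Epithelial markers over 8 genes summed to 267 to 308 times the 75th percentile in Vector and 220 to 253 in MOAP-1. They summed to 200 to 226 in K264R, 181 to 259 in K278R and 234 to 264 in the tumors labelled RASSF1A. Every Vector tumor thus lay above every other tumor, and the part of this in the member values was not tested. CDH17 was not above background in any tumor. The introduced genes gave a mixed check of the labels. The MOAP1 probe lay at 0.34 to 0.72 in the MOAP-1 tumors, 0.11 to 0.47 in K264R, 0.42 to 0.53 in K278R and -0.53 to -0.13 in Vector. The RASSF1 probe lay at 1.55 to 1.59 in the tumors labelled RASSF1A and 1.52 to 1.81 in Vector, so these arrays did not show the introduced RASSF1A. Whether either probe lies in its introduced sequence was not determined. Against Vector the MOAP1 rise was 0.55 in K264R, under the fold limit, and in MOAP-1 9.87% of all probes were called higher. Each Vector tumor was on slide 4 with tumor 3 labelled RASSF1A, and no tumor with a MOAP-1 form was on that slide. Slide and construct therefore cannot be told apart in comparisons of these forms with Vector. The MOAP-1 tumors were on slides 1 and 2 and the K264R tumors on slide 3. MOAP-1 thus shared no slide with K264R or the tumors labelled RASSF1A, and the same limit holds for those comparisons. Tumors 1 and 2 labelled RASSF1A were on slide 5 and were scanned on a later day.

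Across the 5 constructs, 7 of the 14 member probes, from 6 genes, passed limma's moderated F test at an adjusted p under 0.05, against 43.3% of all kept probes. The member probes called in single comparisons were few. In MOAP-1 against Vector 2 of 14 were called, both higher (16.6% of all probes were called in that comparison, 9.87% as higher). In K264R against Vector 2 of 14 were called, both higher (19.5% of all probes, 9.32% as higher). In K278R against Vector 3 of 14 were called, all higher (10.9% of all probes, 7.71% as higher). In the tumors labelled RASSF1A against Vector 0 of 14 were called by limma, as were 0 of all probes (0%), and 5 of 14 had an unadjusted p under 0.05 (12.1% of all probes). Without tumor 3 labelled RASSF1A, 1414 of all probes were called there, 1154 of them lower, and 0 members. In MOAP-1 against the tumors labelled RASSF1A 5 of 14 were called, 3 higher and 2 lower (21.2% of all probes, 13.0% as higher and 8.14% as lower). With quantile normalization the split of all called probes was more even, with 2302 of 4729 higher in MOAP-1 against Vector in place of 3020 of 5069, and 1371 of 2663 in K278R in place of 2358 of 3339. With normexp fitted without spots of extreme background it leaned to lower values, with 1133 of 2765 higher in MOAP-1, 1246 of 8973 in K264R and 605 of 1298 in K278R, each against Vector. In K264R that setting called 3 members, MCL1 higher and the BCL2 alpha probe and BMF probe A_33_P3346801 lower. The members' shares in the comparisons with calls were 14.3, 14.3, 21.4 and 35.7%, on 2 to 5 probes each, and the results below concern single genes. The median difference of the 14 probes was -0.071 in MOAP-1 against Vector, where that of all probes was 0.017, with 5 of the 14 above 0.

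**Figure D1:**
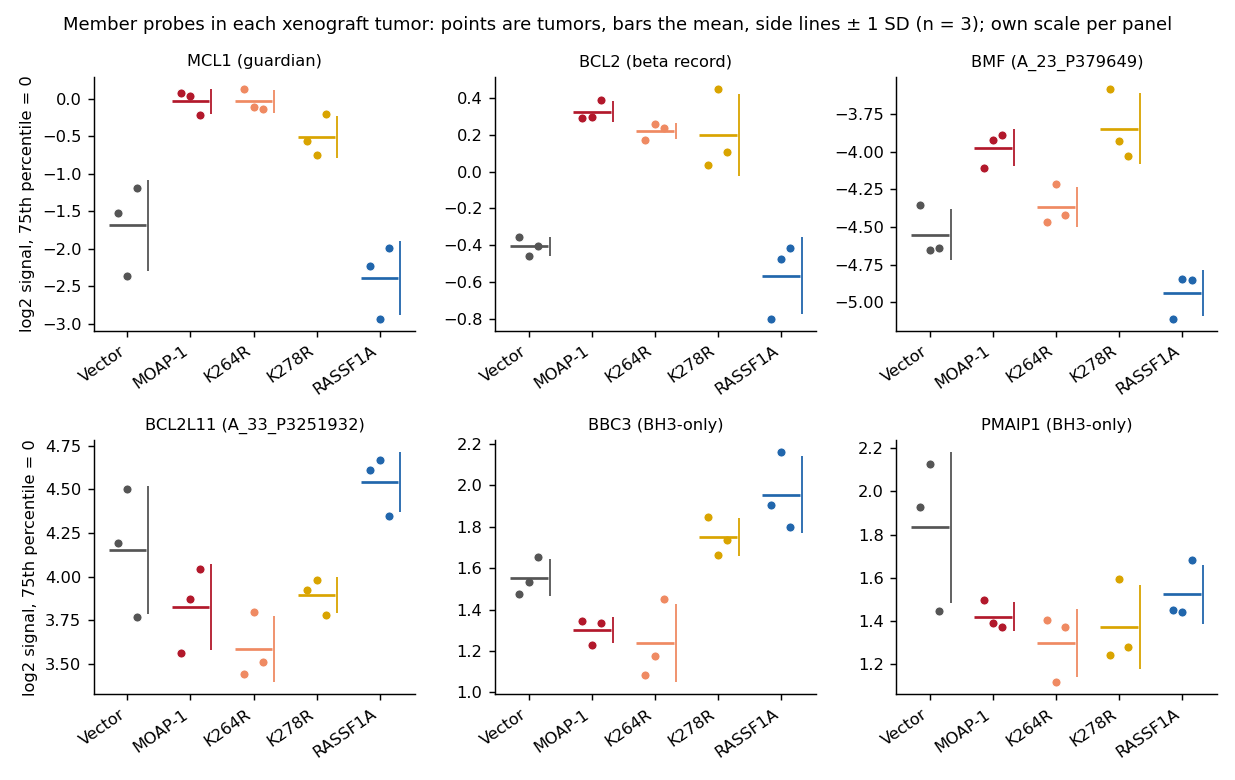
Level of 6 member probes in every tumor, as log2 signal with the 75th percentile of each array at 0 (vertical axis, own scale per panel), by construct (horizontal axis). Points are tumors, horizontal bars means and side lines 1 SD over 3 tumors. For MCL1 the MOAP-1 and K264R tumors sit between -0.22 and 0.14, and the Vector and RASSF1A tumors between -2.94 and -1.18.

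MCL1 showed the widest separation of the guardians. The protein binds BAK1 and BCL2L11 and protects many carcinoma cells from death. The MCL1 probe (A_24_P336759) read 0.084, 0.036 and -0.22 with MOAP-1 and -1.52, -2.36 and -1.18 with Vector. The K264R values were 0.14, -0.11 and -0.13, and the K278R values -0.56, -0.75 and -0.20. Every tumor with a form of MOAP-1 was thus above every Vector tumor. In the tumors labelled RASSF1A it read -2.23, -2.94 and -1.99, which overlapped Vector at the lower end of its range. On its only probe, MCL1 rose 3.15-fold in MOAP-1 against Vector (log2 difference 1.66 ± 0.28 SE, n = 3 tumors per group, limma adjusted p = 0.00104). The rise was 3.15-fold in K264R (adjusted p = 0.000747) and 2.28-fold in K278R (adjusted p = 0.0125), each against the same 3 Vector tumors, so these values are not independent. The tumors labelled RASSF1A differed from Vector by -0.70 (95% interval -1.31 to -0.090, adjusted p = 0.371). No other MCL1 probe was available to set beside these values, and for BCL2 and BMF a second probe did not repeat the call.

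MCL1 did not separate wild type MOAP-1 from the mutants at the threshold. The difference of MOAP-1 from K264R was 0.0011 (95% interval -0.61 to 0.61, adjusted p = 1) and from K278R 0.47 (95% interval -0.14 to 1.08, adjusted p = 0.647). Within slide 2, the 1 MOAP-1 tumor there exceeded the mean of the 3 K278R tumors by 0.54. The call of K278R against Vector was lost without Vector tumor 2 (0.85, limma adjusted p = 0.0549), without K278R tumor 3 (1.04, adjusted p = 0.0513) and with normexp background correction (0.57, adjusted p = 0.279), but not with normexp fitted without spots of extreme background (1.01, adjusted p = 0.00719). The call of MOAP-1 against Vector was lost with the methods' t-test, whose adjusted p was 0.0558. With normexp background correction the difference for MOAP-1 was 0.99 (adjusted p = 0.0333), while the median of all probes moved to -0.53, so that MCL1 lay 1.52 above that median, against 1.64 in the values reported here. As these are whole tumors, fewer cells of a type and less RNA per cell cannot be told apart.

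BCL2, the founding guardian, was measured by probes that did not agree. Probe A_33_P3355185 is assigned to the BCL2 beta transcript, which encodes a form without the membrane anchor, and probe A_23_P352266 to the alpha transcript, which encodes the main form. The beta probe read 0.29, 0.29 and 0.39 with MOAP-1 and -0.36, -0.46 and -0.40 with Vector. It read 0.17, 0.26 and 0.24 in K264R, and 0.036, 0.45 and 0.11 in K278R. The MOAP-1 forms therefore did not overlap Vector, and within K278R the second tumor was well above the others. In the tumors labelled RASSF1A the beta probe read -0.80, -0.47 and -0.42, which overlapped Vector.

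On the beta probe, BCL2 rose 1.66-fold in MOAP-1 against Vector (log2 difference 0.73 ± 0.12 SE, n = 3 tumors per group, limma adjusted p = 0.00089). It rose 1.54-fold in K264R (adjusted p = 0.00171) and 1.52-fold in K278R (adjusted p = 0.00608), the latter just past the 1.5-fold limit. Without K278R tumor 2 that last difference was 0.48 and without Vector tumor 2 it was 0.58, both under the fold limit. The tumors labelled RASSF1A differed from Vector by -0.16 (95% interval -0.42 to 0.10, adjusted p = 0.609). MOAP-1 differed from K264R by 0.10 (95% interval -0.16 to 0.37) and from K278R by 0.13 (95% interval -0.13 to 0.39), and neither passed. The rise was not called with normexp, where the MOAP-1 difference was 0.57 (adjusted p = 0.0859), although it then lay 1.10 above the median of all probes. It was called with normexp fitted without spots of extreme background (0.67, adjusted p = 0.00173), where those of K264R and K278R, at 0.57 and 0.55, were under the fold limit.

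The alpha probe, printed in 10 spots, was dim. Its processed signal ran from 5.62 to 18.1 units, and it was well above background in 13 of the 15 tumors. Its log2 values ran from -6.69 to -6.13 over all tumors, and every construct overlapped Vector. The difference of MOAP-1 from Vector was -0.19 (95% interval -0.45 to 0.067, adjusted p = 0.239), an interval that does not reach the rise on the beta probe. This probe was called in 0 of the 7 comparisons.

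Among the members, 7 of 10 genes had a promoter window in the RefSeq table (GRCh38.p14), and 4 windows of genes that differed between constructs are printed so that the sequence next to their starts can be read beside the values. MCL1, BCL2L2 and BIK had none. Each window holds the 250 bases before the annotated start, 5′ to 3′ on the strand of the gene. Capitals mark matches on either strand to 4 motifs: the forkhead site GTAAACA, the GC box GGGCGG, the E box CACGTG and the CCAAT box CCAAT. Of 35116 windows, 2.98% held the forkhead site, 42.6% the GC box, 6.34% the E box and 32.0% the CCAAT box. The motifs did not overlap in the windows shown, and a match describes letters only.
BCL2, minus strand, chr18:63319770-63320019: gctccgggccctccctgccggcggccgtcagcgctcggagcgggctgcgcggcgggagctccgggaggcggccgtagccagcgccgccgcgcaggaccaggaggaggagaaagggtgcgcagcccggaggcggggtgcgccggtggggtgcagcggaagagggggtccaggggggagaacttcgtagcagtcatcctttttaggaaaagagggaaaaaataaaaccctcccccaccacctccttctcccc
BMF, minus strand, chr15:40108880-40109129: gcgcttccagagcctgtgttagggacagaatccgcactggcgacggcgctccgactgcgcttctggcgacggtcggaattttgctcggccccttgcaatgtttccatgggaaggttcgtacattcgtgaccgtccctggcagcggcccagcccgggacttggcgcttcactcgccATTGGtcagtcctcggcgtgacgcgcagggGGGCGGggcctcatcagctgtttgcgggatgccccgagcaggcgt
BCL2L11, plus strand, chr2:111120664-111120913: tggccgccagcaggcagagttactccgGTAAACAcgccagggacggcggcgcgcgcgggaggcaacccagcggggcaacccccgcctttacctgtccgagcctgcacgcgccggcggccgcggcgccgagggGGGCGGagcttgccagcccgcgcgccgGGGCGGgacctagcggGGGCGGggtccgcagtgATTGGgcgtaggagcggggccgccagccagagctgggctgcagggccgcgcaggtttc
BBC3, minus strand, chr19:47232668-47232917: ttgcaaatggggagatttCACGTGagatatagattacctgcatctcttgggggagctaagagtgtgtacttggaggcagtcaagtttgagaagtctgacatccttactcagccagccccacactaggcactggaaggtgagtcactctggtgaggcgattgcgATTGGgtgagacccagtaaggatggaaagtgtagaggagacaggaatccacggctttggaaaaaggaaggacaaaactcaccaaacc
The BCL2 window held 0 matches to the 4 motifs. The BMF window held 1 GC box and 1 CCAAT box, and the other BMF window in the table held 0 matches. The BCL2L11 window held 1 forkhead site, the letters that FOXO factors recognize, with 3 GC boxes and 1 CCAAT box. The BBC3 window held 1 E box and 1 CCAAT box.

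The remaining guardians were called in 0 of the 7 comparisons. BCL2L2 (BCL-W), a relative of BCL2 active in epithelium and neurons, read 0.53, 0.39 and 0.27 in MOAP-1 and 0.14 to 0.23 in Vector, without overlap. Its difference of MOAP-1 from Vector was 0.20 (95% interval -0.039 to 0.43, adjusted p = 0.187). Against the tumors labelled RASSF1A, at -0.027 to 0.13, MOAP-1 was 0.33 higher (adjusted p = 0.0275), which is 1.26-fold and under the fold limit. BCL2A1 (A1), an NF-κB target best known in leukocytes, read -1.57 to -1.44 in K278R and -1.22 to -1.10 in Vector on its kept probe (A_23_P321703). The groups did not overlap, and the difference of -0.34 (adjusted p = 0.0116) was 1.27-fold, under the fold limit. It read -1.40 to -1.32 in MOAP-1, -1.43 to -1.29 in K264R and -1.17 to -1.08 in the tumors labelled RASSF1A. Summed leukocyte marker signal, in multiples of the array's 75th percentile and over 10 genes, was 12.5 to 13.3 in K278R and 13.3 to 17.3 in Vector. It was 16.9 to 21.6 in the tumors labelled RASSF1A, and its part in the BCL2A1 values was not tested. Host leukocytes would be mouse cells, and the binding of mouse RNA to these human probes was not tested either.

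Of the BH3-only genes, BMF, which binds dynein light chains and is released when cells detach, was the only one called against Vector at these limits. Probe A_23_P379649 read -4.11, -3.92 and -3.89 in MOAP-1, and -4.36, -4.65 and -4.64 in Vector. It read -3.58, -3.93 and -4.03 in K278R, and -4.47, -4.22 and -4.42 in K264R. In the tumors labelled RASSF1A it read -5.11, -4.84 and -4.85. MOAP-1 and K278R were above all Vector tumors, K264R overlapped Vector, and the tumors labelled RASSF1A were lowest. BMF was 1.63-fold higher in K278R than in Vector (log2 difference 0.70 ± 0.14 SE, n = 3 tumors per group, limma adjusted p = 0.00529), but with normexp this difference turned to -0.96 (adjusted p = 0.312), where the median of all probes was -0.46. It was 0.12 (adjusted p = 0.577) with normexp fitted without spots of extreme background and 0.52 with quantile normalization, and neither was called. Without K278R tumor 1 it was 0.57, under the fold limit. In MOAP-1 the difference from Vector was 0.58 (adjusted p = 0.00707), at 1.49-fold just short of the limit. MOAP-1 exceeded the tumors labelled RASSF1A 1.95-fold (adjusted p = 0.000183), and by 0.26 with normexp, where it was not called (adjusted p = 1, or 0.16 without spots of extreme background).

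The BMF probe was faint, with processed signals of 21.3 to 77.7 units. The other BMF probe, A_33_P3346801, at 19.2 to 39.9 units, read -5.15 to -4.68 in MOAP-1 and -5.06 to -4.89 in Vector and was called in 0 of the 7 comparisons. Its difference of K278R from Vector was 0.21 (95% interval -0.18 to 0.59), which includes 0 and lies below the first probe's estimate of 0.70 (95% interval 0.41 to 1.00).

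**Figure D2:**
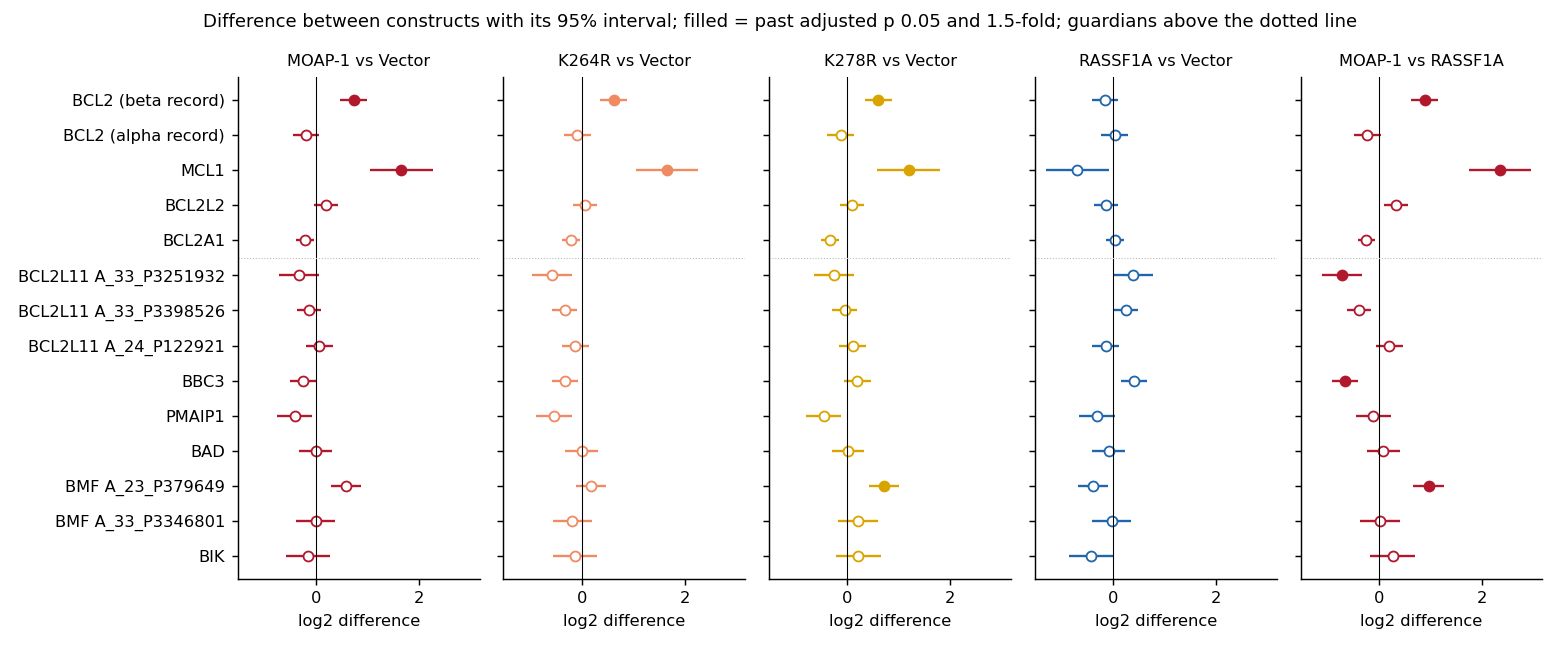
Difference in log2 signal between constructs (horizontal axis) for the 14 kept member probes (vertical axis, guardians above the dotted line), with 95% intervals from limma. Filled points passed the adjusted p and the 1.5-fold limit. The 5 panels leave out MOAP-1 against K264R and K278R, where 0 members were called. MCL1 and the BCL2 beta probe are filled in 4 panels, and all points are open in RASSF1A against Vector.

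BCL2L11, whose protein BIM binds every guardian, was measured by 3 probes. Probe A_33_P3251932 read 3.56, 3.87 and 4.04 in MOAP-1, 4.19, 4.50 and 3.77 in Vector, and 4.61, 4.67 and 4.35 in the tumors labelled RASSF1A. It read 3.44 to 3.80 in K264R and 3.78 to 3.98 in K278R. MOAP-1 overlapped Vector, and the tumors labelled RASSF1A were above all MOAP-1 tumors. BCL2L11 was 1.64-fold lower in MOAP-1 than in the tumors labelled RASSF1A (log2 difference -0.72 ± 0.18 SE, n = 3 tumors per group, limma adjusted p = 0.00694). On probe A_33_P3398526 the same difference was -0.39 (adjusted p = 0.0161), under the fold limit, and on probe A_24_P122921 it was 0.20 (95% interval -0.058 to 0.46), of the other sign. That last probe is assigned to a different RefSeq record from the others. Against Vector, MOAP-1 differed by -0.33 (95% interval -0.71 to 0.059) on the first probe, and K264R by -0.57 (adjusted p = 0.0252, 1.48-fold). K264R differed by -0.33 (adjusted p = 0.0345) on probe A_33_P3398526 and by -0.12 (adjusted p = 0.472) on probe A_24_P122921.

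BBC3 (PUMA), whose protein binds every guardian, read 1.34, 1.23 and 1.33 in MOAP-1, 1.48, 1.53 and 1.65 in Vector, and 1.91, 2.16 and 1.80 in the tumors labelled RASSF1A. It read 1.09, 1.18 and 1.45 in K264R, and 1.85, 1.66 and 1.74 in K278R. The levels thus ran from K264R and MOAP-1, which overlapped, through Vector to K278R and the tumors labelled RASSF1A, which overlapped as well. BBC3 was 1.57-fold lower in MOAP-1 than in the tumors labelled RASSF1A (log2 difference -0.65 ± 0.12 SE, n = 3 tumors per group, limma adjusted p = 0.000923). Against Vector the difference was -0.25 for MOAP-1 (95% interval -0.51 to 0.0018, adjusted p = 0.12) and 0.20 for K278R (95% interval -0.059 to 0.45, adjusted p = 0.248). The wild type and the K278R tumors did not overlap, and the difference of -0.45 (95% interval -0.70 to -0.19) had an adjusted p of 0.415. Within slide 2 it was -0.52.

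The calls of BCL2L11 and BBC3 against the tumors labelled RASSF1A rested on tumors 1 and 2 of that group. With tumor 3 alone, which was scanned on the same day as the other constructs and was assumed to vary like them, the differences were -0.52 for BCL2L11 (adjusted p = 0.223) and -0.49 for BBC3 (adjusted p = 0.0638). Both fell short of the fold limit with quantile normalization as well, at -0.45 and -0.53. BCL2L11 also did so without MOAP-1 tumor 1 (-0.58), and BBC3 without tumor 2 labelled RASSF1A (-0.55). In the same comparison MCL1 was 5.12-fold higher (adjusted p = 6.71e-05) and the BCL2 beta probe 1.85-fold higher in MOAP-1 (adjusted p = 0.000143), and both calls were kept under each of the 14 alternative settings and without any 1 tumor. Within slide 4, tumor 3 labelled RASSF1A lay 0.30 below the mean of the 3 Vector tumors for MCL1, 0.24 above it for BBC3, 0.19 above it for BCL2L11 on probe A_33_P3251932 and 0.010 below it for the BCL2 beta probe.

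PMAIP1 (NOXA), which targets MCL1 for destruction, read 1.50, 1.39 and 1.37 in MOAP-1, 1.93, 2.13 and 1.45 in Vector, and 1.40, 1.11 and 1.37 in K264R. Vector tumor 3 was far below its group and lay within the range of the MOAP-1 tumors, whereas K264R was below all Vector tumors. No comparison was called. The difference from Vector was -0.54 in K264R (adjusted p = 0.02, 1.45-fold), -0.46 in K278R (adjusted p = 0.0565) and -0.41 in MOAP-1 (adjusted p = 0.0653). Without Vector tumor 3, PMAIP1 and BCL2L11 passed both limits in K264R against Vector, both lower. The count of called members there was 4 in place of 2, and that of all called probes 6762 in place of 5954.

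BAD and BIK passed no comparison. BAD, which is held inactive by phosphorylation and 14-3-3 proteins, read 0.051 to 0.17 in MOAP-1 and -0.031 to 0.22 in Vector, and K278R spread most, from -0.18 to 0.45. Its difference of MOAP-1 from Vector was -0.00098 (95% interval -0.32 to 0.32). BIK, an endoplasmic reticulum BH3-only protein, read 3.36 to 3.86 in MOAP-1, 3.67 to 4.03 in Vector, 3.69 to 4.21 in K278R and 3.12 to 3.55 in the tumors labelled RASSF1A. The last group lay below all Vector tumors, with a difference of -0.43 (95% interval -0.86 to 0.0070, adjusted p = 0.416).

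**Figure D3:**
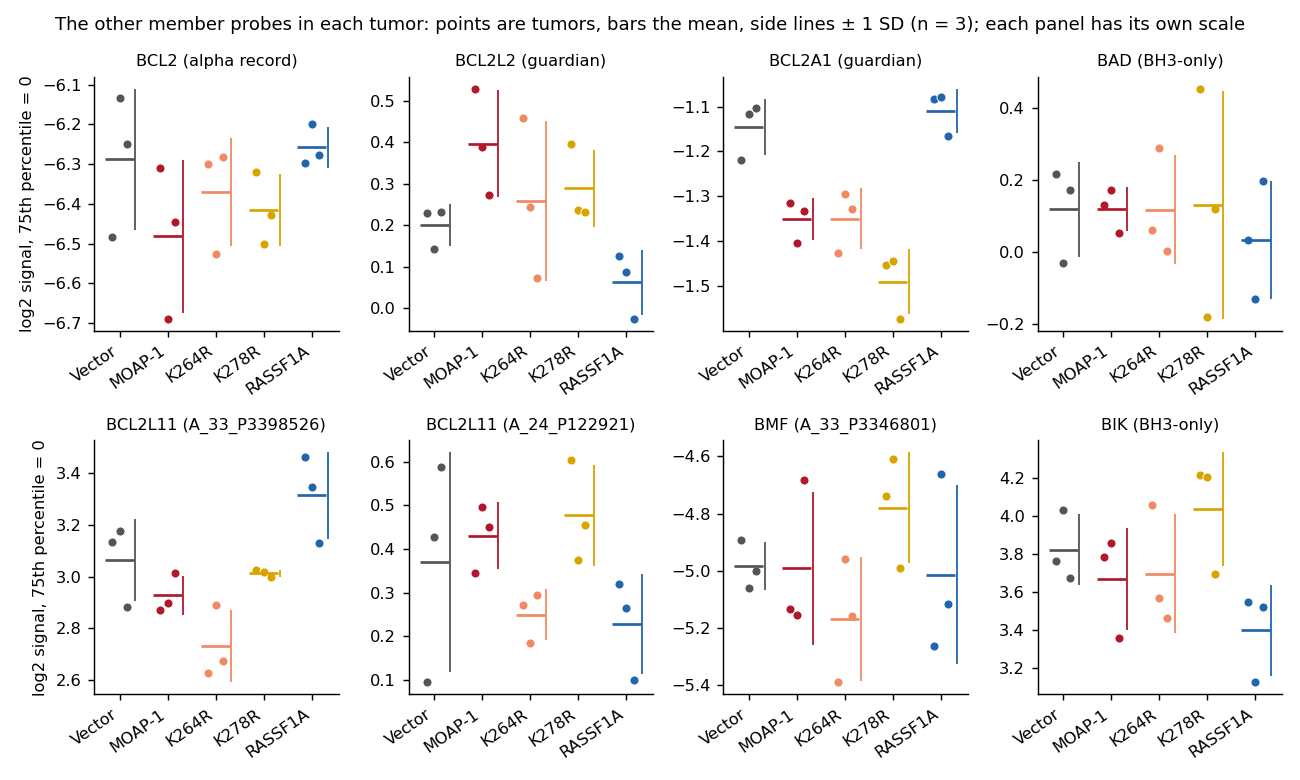
Level of the 8 other kept member probes in every tumor, as log2 signal with the 75th percentile of each array at 0 (vertical axis, own scale per panel), by construct (horizontal axis). Points are tumors, bars means and side lines 1 SD over 3 tumors. The BCL2A1 tumors of the MOAP-1 forms lie between -1.57 and -1.29, below the Vector tumors at -1.22 to -1.10, and the BAD tumors overlap in all groups.

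No member probe was called between wild type MOAP-1 and either mutant. In MOAP-1 against K264R 0 of 14 were called (0.00327% of all probes) and 1 of 14 had an unadjusted p under 0.05 (10.7% of all probes). In MOAP-1 against K278R 0 of 14 were called (0% of all probes) and 1 of 14 had an unadjusted p under 0.05 (9.22% of all probes). The first was BMF on probe A_23_P379649, 0.40 higher in wild type (95% interval 0.10 to 0.69, adjusted p = 0.4), and the second was BBC3. The methods' t-test after adjustment also called 0 members in both comparisons, and 0 of all probes. Over all probes, array weights gave 1819 calls in MOAP-1 against K264R in place of 1, and leaving out MOAP-1 tumor 1 gave 36. In MOAP-1 against K278R, leaving out K278R tumor 3 gave 204 in place of 0, and leaving out MOAP-1 tumor 1 gave 8. Each of these settings called 0 members.

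Other genes of the pathway were counted from lists. Of 14 further BCL2 family genes, 4 rose in MOAP-1 against Vector and 2 fell (6 of 21 probes, 28.6%, beside 16.6% of all probes). BAX, a pore former that guardians restrain, rose by 0.68 (adjusted p = 0.00404) on probe A_23_P208706 and differed by -0.0061 (adjusted p = 0.978) on probe A_33_P3341144. BAK1, the other pore former, rose by 0.72 (adjusted p = 0.0158). BNIP3L, a mitophagy receptor, rose by 0.63 on probe A_33_P3396951 and differed by -0.23 (adjusted p = 0.476) on probe A_23_P134925, and MOAP1 itself rose by 0.86. The listed genes that fell were BOK, a BAX relative, at -0.70, and the BH3-only gene HRK at -0.78. The guardian BCL2L1 (BCL-XL), named after its values were seen, differed by 0.37 (adjusted p = 0.0345), under the fold limit. In K264R 2 genes rose and 2 fell (19.0% of probes, beside 19.5% of all), in K278R 3 rose and 1 fell (19.0%, beside 10.9%), and in the tumors labelled RASSF1A 0 were called. The median of the brightest probe per gene was 0.075 in MOAP-1 against Vector, where that of all probes was 0.017.

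Of 14 transcription factors known to act on the members, 13 had a kept probe, and in MOAP-1 against Vector 5 rose and 1 fell (8 of 22 probes, 36.4%, beside 16.6% of all probes). STAT3, an activator of MCL1, rose by 1.25 (adjusted p = 0.0114) on probe A_23_P100795 and by 1.24 on probe A_24_P116805. RELA, the NF-κB subunit that acts on BCL2A1, rose by 0.98 on probe A_23_P104689 and by 0.75 on probe A_33_P3209433. The probes of other factors did not agree. ATF3, a stress factor, rose by 1.39 on its dim probe A_24_P33895, while its other 3 probes differed by -0.49 (adjusted p = 0.00105), -0.37 (adjusted p = 0.0229) and -0.0031, each under the fold limit. HIF1A, a factor of low oxygen, rose by 1.86 on probe A_33_P3231277 and differed by 0.0055 on probe A_24_P56388. TP73 fell by 0.62 on probe A_24_P413470 and differed by -0.071 on probe A_33_P3296831. DDIT3, with 1 kept probe, rose by 0.79. In K264R 5 rose and 1 fell (31.8% of probes, beside 19.5% of all), in K278R 4 rose and 1 fell (31.8%, beside 10.9%), and in the tumors labelled RASSF1A 0 were called. The list's median was -0.0031 in MOAP-1 against Vector, beside 0.017 for all probes.

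Of 19 genes whose proteins bind, modify or turn over members, 18 had a kept probe, and 3 rose and 0 fell in MOAP-1 against Vector (3 of 24 probes, 12.5%, beside 16.6% of all probes). HUWE1, a ubiquitin ligase of MCL1, rose by 1.28 (adjusted p = 0.00173) on probe A_33_P3811287 but differed by -0.38 (adjusted p = 0.0905) on probe A_24_P932016, and in K264R the second probe fell by 0.89 while the first rose by 1.18. YWHAQ, a 14-3-3 protein, rose by 1.25 on probe A_33_P3662553 and differed by 0.38 (adjusted p = 0.107) on probe A_23_P131723. PPP3CA, the calcineurin subunit that dephosphorylates BAD, rose by 0.68. In K264R 3 genes rose and 2 fell, with HUWE1 in both counts (20.8% of probes, beside 19.5% of all), in K278R 2 rose and 0 fell (8.33%, beside 10.9%), and in the tumors labelled RASSF1A 0 were called. The list's median was 0.12 in MOAP-1 against Vector.

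Markers of other cells varied between tumors beside these results. Host cells of these kinds would be mouse cells, whereas the probes were named through human RefSeq accessions. How far mouse RNA binds these probes was not tested, so the sums do not measure host cell content. Summed fibroblast marker signal over 9 genes, in multiples of the 75th percentile, ran from 6.93 to 50.8 in MOAP-1, 2.36 to 21.8 in Vector, 5.41 to 22.0 in K264R, 14.9 to 48.4 in K278R and 9.64 to 14.2 in the tumors labelled RASSF1A, with LUM not above background in any tumor. MOAP-1 and Vector overlapped in this sum. The median difference of the fibroblast list was 1.61 in MOAP-1 against Vector and 1.52 in K278R against Vector, beside 0.017 and 0.062 for all probes. It was 0.33 in K264R and 0.94 in the tumors labelled RASSF1A, beside -0.048 and 0.020, with 0 of its genes called. Of its 8 kept genes, 2 were called higher in MOAP-1 (22.2% of its probes, beside 16.6% of all). In K278R 1 was called higher (11.1%, beside 10.9%). Endothelial markers (8 genes) summed to 3.27 to 3.71 in MOAP-1 and 3.04 to 3.21 in Vector, and erythroid markers (4 genes with a probe) to 12.8 to 15.3 in Vector and 15.6 to 20.6 in the tumors labelled RASSF1A. Leukocyte markers ran from 11.4 to 15.2 in MOAP-1. Against Vector 1 of their 10 genes was called higher and 1 lower (15.4% of probes, beside 16.6% of all). The part of these cells in the member values was not tested.

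The genes whose levels followed 3 members most closely over the 15 tumors were sought as a description. For MCL1 these were DCTN5 (Pearson r = 0.995) and IGBP1 (r = 0.993), for the BCL2 beta probe PTCD2 (r = 0.981) and PMS2P4 (r = 0.979), and for BMF SALL4 (r = 0.957) and DENND1A (r = 0.947). The points share arrays and scaling, and fall into groups by construct.

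**Figure D4:**
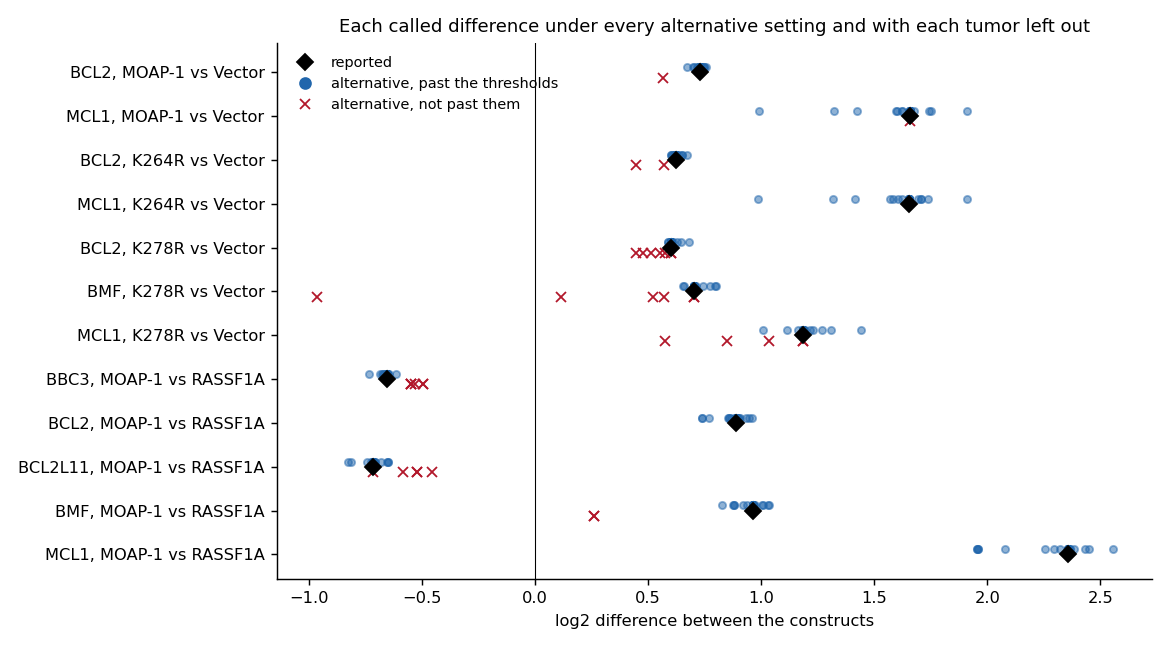
Each called difference between constructs in log2 units (horizontal axis), by member and comparison (vertical axis). Diamonds are the values reported, circles alternative settings or fits without 1 tumor that kept the call, and crosses those that lost it. MCL1 in MOAP-1 against RASSF1A runs from 1.95 to 2.55 without a cross, and BMF in K278R against Vector reaches -0.96.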

How the data were processed

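RNA of 15 xenograft tumors was hybridized to single-color Agilent 4x44K arrays. Per the file headers, the deposited processed signal is an intensity from Agilent Feature Extraction 10.5.1.1 (9.1 in the submitters' processing notes), corrected for background and not normalized between arrays. A second deposited file holds log2 values that the authors obtained with GeneSpring GX, shifted to the 75th percentile and centered per probe. Of its 15 columns, 8 matched the array of their own label best and all 15 matched an array of the same construct, so it was used only as an alternative, and its centering is inferred from the values.

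Spots marked as outliers were left out, spots of a probe were averaged, and the log2 processed signal was shifted so that each array's 75th percentile was 0. Probes were named through RefSeq accessions (74.5% matched a gene). A fit by limma 3.58.1 in R 4.3.3 on all 15 arrays, with construct as the only term and 10 residual degrees of freedom, gave 7 comparisons and a moderated F test. The number of arrays limits the precision. Calls needed a Benjamini-Hochberg adjusted p under 0.05 over 30585 kept probes and 1.5-fold. Tests were two-sided. The fit was tested on simulated data. The members, the lists and the thresholds were chosen with earlier results of these data known. All probes of the 10 members were named, with values in each tumor for those called. 1 gene was left out of a list and is not reported here. Of the lists, the genes called in MOAP-1 against Vector were named, and for 3 members the 2 probes of other genes most like them by Pearson r.

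Alternatives were quantile normalization, normexp background correction (offset 50, with and without spots of extreme local background), no filter or a filter on all 15 arrays, the authors' table, array weights, slide or replicate number as a block, scan day, only the arrays compared, the methods' t-test and leaving out each tumor. A fit without the later scan day was chosen after seeing the data. Tumor numbers were compared as pairs: over 30 pairs of same-numbered tumors, deviations from the construct means correlated at -0.25 to 0.37. Of these, 15 pairs exceeded 0.1, and all pairs of tumors numbered 2 were positive, at 0.058 to 0.25. The signs of the other pairs were mixed, so the values do not settle whether the numbers pair the tumors. The fit reported did not pair them, and 1 alternative took the number as a block. Arrays of 1 construct correlated at 0.986 to 0.996, and no pair held identical values.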

Additional observations from a re-analysis of the deposited data

How the results depend on the processing

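Counts of called members moved by over 1.5 times under 5 of 14 settings in MOAP-1 against the tumors labelled RASSF1A, 4 of 14 in K278R against Vector, 2 of 14 in MOAP-1 against Vector and 1 of 14 in K264R against Vector. With normexp background correction, 3 member probes differed among the 5 constructs in place of 7, and 1 was called in MOAP-1 against Vector, 1 in K264R, 0 in K278R and 3 in MOAP-1 against the tumors labelled RASSF1A. With normexp fitted without spots of extreme background, 1 was called in K278R against Vector and 3 in MOAP-1 against the tumors labelled RASSF1A. For the latter, quantile normalization gave 3 and scan day as a term 3. The fit without the later scan day, chosen after seeing the data, also gave 3, with 4 member probes differing among the 5 constructs. Over all probes, these settings called 6420, 3259 and 3144 in that comparison, in place of 6477. With only the arrays compared, 0 were called in K278R against Vector, where the calls over all probes fell from 3339 to 1164. The methods' t-test after adjustment called 0 member probes there, as it called 0 of all probes. In MOAP-1 against Vector it called 1 member probe, and 2634 of all probes in place of 5069. BMF in K278R against Vector turned to -0.96 with normexp and was 0.12 once spots of extreme background were left out of that fit, so the sign changed with those spots. Over all probes, normexp called 522 in MOAP-1 against Vector in place of 5069, 917 in K264R in place of 5954, 1 in K278R in place of 3339 and 2256 in MOAP-1 against the tumors labelled RASSF1A in place of 6477. Without spots of extreme background these counts were 2765, 8973, 1298 and 3805.

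With 1 tumor left out, 7 to 8 member probes differed among the constructs, and 2 to 3 were called in MOAP-1 against Vector. In K264R 2 to 4 were called (4 without Vector tumor 3). In K278R 1 to 4 were called (1 without Vector tumor 2, which ended the calls of MCL1 and BCL2). In MOAP-1 against the tumors labelled RASSF1A 4 to 5 were called, and 0 in the other comparisons. Over all probes, the calls in these fits ran from 3762 to 5682 in MOAP-1 against Vector and 4898 to 6762 in K264R (highest without Vector tumor 3). They ran from 1683 to 3925 in K278R (lowest without Vector tumor 2) and 5726 to 7190 in MOAP-1 against the tumors labelled RASSF1A. With the tumor number as a replicate block, 7 probes differed among the constructs and 2, 2, 3 and 5 were called in MOAP-1, K264R and K278R against Vector and in MOAP-1 against the tumors labelled RASSF1A. The block changed none of the calls. Faint signal limits BMF and the BCL2 alpha probe, whose values lie near background.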
